A study of Mus musculus with 6 samples.

Results

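The nuclear genes for the protein subunits of the mitochondrial ribosome were examined in gastrocnemius muscle of mice with and without induced deletion of the vitamin D receptor gene Vdr. Members were the protein-coding genes whose symbol starts with Mrpl or Mrps followed by a number, 77 of 43346 genes in the deposited table. By the letter in their name, 48 belong to the large and 29 to the small subunit. All 77 passed the filter on low counts that left 15583 genes for testing. The 6 mice were male, 6 months old and of the genotype Vdrfl/fl.actin iCre: both Vdr alleles carry loxP sites around exon 3, and the transgene Tg(ACTA1-cre/Esr1*)2Kesr places a Cre recombinase that tamoxifen activates under the human skeletal actin promoter, which is active in muscle fibres. In the 3 mice of the knockout group, tamoxifen was injected into the abdomen for 5 days at 100 mg/kg in corn oil with 10% ethanol. The 3 mice of the vehicle group carried the same alleles and transgene and received the oil with 10% ethanol alone. Tamoxifen, active Cre and the deletion therefore came together, and their parts cannot be told apart here. Tamoxifen-treated mice without Cre were not analysed here. Muscle was collected after tests of glucose tolerance and strength made 10 days after the last injection, from mice fed a diet with vitamin D3 at 3.4 IU/g and 0.81% calcium.

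Mitochondria carry their own ribosome, which makes the few proteins still encoded by mitochondrial DNA, all of them subunits of the oxidative phosphorylation complexes. Its RNAs come from the mitochondrial genome, whereas every protein subunit is encoded in the nucleus, made in the cytosol and imported. The large subunit joins amino acids and holds the exit tunnel next to the inner membrane, and the small subunit binds and decodes the messenger RNA. Skeletal muscle is rich in mitochondria, slow-twitch oxidative fibres more so than the fast glycolytic fibres that make up most of the mouse gastrocnemius.

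The libraries held 30486874 to 39909535 counted reads. All 8 skeletal muscle markers, from Acta1 to Ryr1, had reads in every library, with a summed level of 68900 to 143000 CPM (reads scaled to a common library size) in the knockout and 98300 to 127000 in the vehicle group. Vdr had 52, 27 and 40 reads in knockout replicates 1 to 3 and 46, 48 and 61 in vehicle replicates 1 to 3, so the groups overlapped (log2 fold change -0.36, SE 0.37, edgeR adjusted p = 0.848). That count covers all exons of Vdr, of which only exon 3 is floxed, and so is a weak check of the deletion. All libraries list 0 reads for the 37 mitochondrially encoded genes, and the RNAs of the mitochondrial ribosome were not examined. Because this is bulk tissue, fewer cells of a type and less RNA per cell cannot be told apart.

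Mitoribosomal transcripts were a small part of the muscle transcriptome. Together the 77 members took 0.364%, 0.534% and 0.361% of the counted reads in knockout replicates 1 to 3 and 0.386%, 0.327% and 0.419% in vehicle replicates 1 to 3. The highest share was in knockout replicate 2 and the lowest in vehicle replicate 2, and the groups overlapped. Counted reads of the members ran from 121888 to 167211 per library.

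Transcript levels differed widely between subunits that the assembled particle holds in fixed proportions. On the deposited FPKM scale, which divides reads by listed gene length and library total, the mean level over the 6 libraries spanned 148-fold from lowest to highest member. The median member stood at 21.9 FPKM, 24.6 for the large and 19.4 for the small subunit. Mrpl42, a protein found only in mitochondrial large subunits, had by far the highest level per length, with 402, 481 and 371 FPKM in the knockout and 376, 398 and 507 FPKM in the vehicle libraries. Every library of Mrpl42 lay above every library of all other members. The next large-subunit genes were Mrpl18, whose bacterial counterpart binds 5S rRNA, at 85.2 FPKM, and Mrpl12, the stalk protein that recruits translation factors, at 80.5 FPKM. In the small subunit Mrps21 averaged 104 FPKM, Mrps16 88.4 and Mrps28 60.7. Ranges over libraries overlapped between Mrps21 (87.3 to 124 FPKM) and Mrps16 (69.1 to 113 FPKM), but within each of the 6 libraries Mrps21 was the higher. At the low end stood Mrpl57 (4.11 FPKM), Mrpl19 (4.54 FPKM) and Mrpl13 (7.60 FPKM) of the large subunit and Mrps10 (2.85 FPKM), Mrps35 (3.38 FPKM) and Mrps25 (4.61 FPKM) of the small subunit.

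Part of that order follows the length that was used. Listed lengths ran from 412 to 8487 bases, and across the 77 genes log2 FPKM was lower where log2 listed length was higher (Pearson r = -0.724, a description in which length enters both axes and genes are not independent). The listed length was a median 1.15 times, and for one gene 7.94 times, the length of the principal transcript in GENCODE M21. That gene was Mrps10, with a listed length of 8079 bases against a principal transcript of 1018 bases, and it moved from the bottom of the list to 22.6 CPM per kb of principal transcript. Mrpl13, listed at 7936 bases against 1223, likewise moved to 49.2 CPM per kb. Other genes moved down. Mrps16, listed at 566 bases against 2572, fell from place 3 by FPKM to place 50, at 19.5 CPM per kb. Mrpl32, listed at 768 bases against 3013, fell from place 18 to place 66, at 9.69 CPM per kb. For Mrps16 and Mrpl32, however, the listed start and end differ from those in GENCODE M21. Their reads were thus counted on another gene model than the one whose length divides them, and their lower places are not a corrected level. Start and end were the same for 49 of the 76 members found there, Mrps10 and Mrpl13 among them. With principal lengths, known for 76 members, the spread was still 128-fold, Mrpl42 kept the first place at 423 CPM per kb, and the medians were 32.0 for the large and 23.3 for the small subunit.

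**Figure D1:**
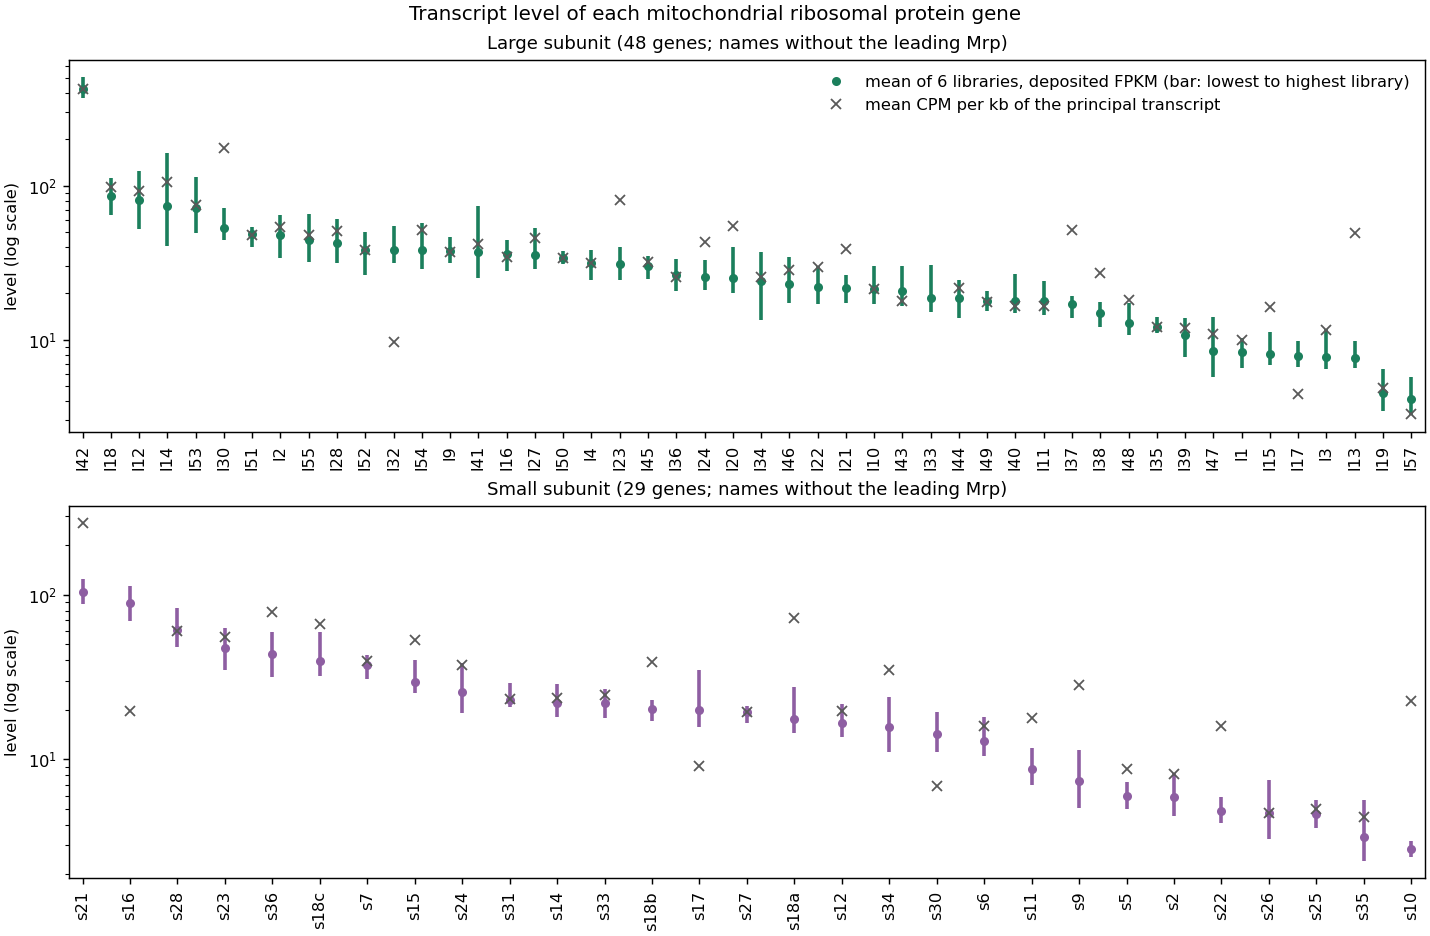
Level of each member, ordered by mean FPKM, with large-subunit genes above and small-subunit genes below; points are means of the 6 libraries, bars run from the lowest to the highest library, crosses are mean CPM per kb of the principal transcript, and the axis is logarithmic. Mrpl42 stands apart at 422 FPKM, and Mrps10 at 2.85 FPKM has its cross at 22.6 CPM per kb.

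Promoters of the members, which are scattered over 17 chromosomes, are shown as a description. Any link between their motifs and the levels in these libraries was not tested. RefSeq start sites on GRCm38.p6 gave a window of 300 bases, from 250 before to 50 after the start, for 68 of the 77 members (74 windows). Short binding motifs of 3 factors known for nuclear genes of mitochondria were searched on both strands: GCATGCGC for NRF1, CCGGAAG for GABPA and other ETS factors, and AAGATGGC for YY1. Because the NRF1 motif is nearly its own reverse complement, matches on opposite strands can overlap each other. In the windows below, the matches are in capitals and the gene starts after the first 250 bases. Mrpl32 holds the most NRF1 matches of any member, Mrpl22 pairs an NRF1 with an ETS match, Mrps27 pairs an ETS with a YY1 match, Mrpl42 is the gene of highest level, and Mrpl47, the member of smallest p between the groups, has no match.
Mrpl32 (chr13:14612988-14613287, minus strand): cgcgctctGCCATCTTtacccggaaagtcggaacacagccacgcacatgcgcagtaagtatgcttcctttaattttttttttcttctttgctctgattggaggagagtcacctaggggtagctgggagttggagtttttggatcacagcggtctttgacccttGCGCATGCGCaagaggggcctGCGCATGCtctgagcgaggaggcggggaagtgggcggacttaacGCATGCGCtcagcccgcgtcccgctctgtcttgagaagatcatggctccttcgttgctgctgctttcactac
Mrpl22 (chr11:58171414-58171713, plus strand): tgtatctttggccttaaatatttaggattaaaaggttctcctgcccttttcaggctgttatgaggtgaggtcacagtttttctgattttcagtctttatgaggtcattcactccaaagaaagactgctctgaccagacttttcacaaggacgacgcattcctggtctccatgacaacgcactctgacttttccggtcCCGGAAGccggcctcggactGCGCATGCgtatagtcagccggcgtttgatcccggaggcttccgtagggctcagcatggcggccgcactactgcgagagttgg
Mrps27 (chr13:99344536-99344835, plus strand): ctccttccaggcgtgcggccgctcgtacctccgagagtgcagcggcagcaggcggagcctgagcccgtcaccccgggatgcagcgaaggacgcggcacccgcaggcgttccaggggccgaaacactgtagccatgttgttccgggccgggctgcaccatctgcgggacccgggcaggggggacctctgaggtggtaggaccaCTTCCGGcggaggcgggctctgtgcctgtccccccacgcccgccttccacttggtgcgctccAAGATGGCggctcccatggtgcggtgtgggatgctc
Mrpl42 (chr10:95501900-95502199, minus strand): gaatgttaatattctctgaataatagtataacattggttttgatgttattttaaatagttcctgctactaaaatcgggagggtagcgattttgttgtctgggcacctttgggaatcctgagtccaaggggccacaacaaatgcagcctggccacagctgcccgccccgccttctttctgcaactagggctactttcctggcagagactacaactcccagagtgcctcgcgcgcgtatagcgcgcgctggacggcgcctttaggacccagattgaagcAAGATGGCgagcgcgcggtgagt
Mrpl47 (chr3:32736706-32737005, minus strand): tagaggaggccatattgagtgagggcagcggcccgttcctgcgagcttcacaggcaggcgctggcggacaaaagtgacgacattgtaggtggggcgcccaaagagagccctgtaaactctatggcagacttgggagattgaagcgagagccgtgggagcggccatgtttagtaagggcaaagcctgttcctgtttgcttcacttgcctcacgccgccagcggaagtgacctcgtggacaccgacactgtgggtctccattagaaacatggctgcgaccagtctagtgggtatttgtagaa

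In Mrpl32, the subunit protein known for its cleavage by the inner-membrane m-AAA protease, NRF1 matches began 87, 85, 66 and 22 bases before the start, the first 2 of them overlapping. In Mrpl22, which lines the exit tunnel, the ETS match began 53 and the NRF1 match 33 bases before the start. In Mrps27, the ETS match lay 48 bases before the start and the YY1 match began at base 15 after it. The YY1 match of Mrpl42 began at base 28 after the start.

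Each motif was more frequent in members' windows than in the table at large, as a description with no test. NRF1 letters were found in 8 of 68 members (11.8%), against 3.05% of all 27025 genes with a window and 5.77% of the 9861 protein-coding genes that were also tested here. CCGGAAG was found in 25 members (36.8%), against 9.93% of all and 19.1% of tested coding genes. AAGATGGC was found in 12 members (17.6%), against 3.19% and 5.04%. At least 1 of the motifs was present in 37 members (54.4%), against 14.9% and 27.1%. By subunit, NRF1 letters were in 7 of 42 large-subunit (16.7%) and 1 of 26 small-subunit genes (3.85%), the single one being Mrps18b. The ETS letters were in 14 large-subunit (33.3%) and 11 small-subunit genes (42.3%), and the YY1 letters in 6 of each (14.3% and 23.1%). A match is a match of letters and not a measured binding site.

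Many members also start close to a gene on the opposite strand, mostly head to head. The window of 24 of the 68 members (35.3%) overlapped a window of a gene on the opposite strand, against 11.9% of all genes and 17.9% of tested coding genes. The share was 17 of 42 (40.5%) for the large and 7 of 26 (26.9%) for the small subunit. One such pair joins the subunits: Mrps11 and Mrpl46 start 42 bases apart in opposite directions on chromosome 7. Mrps12 faces Sars2, the mitochondrial seryl-tRNA synthetase, and Mrpl43 faces Twnk, the helicase that replicates mitochondrial DNA. Mrpl47 faces Ndufb5, a complex I subunit, over 308 bases, and Mrpl32 faces Psma2, a proteasome subunit, over 205 bases. For Mrpl48 and Rab6a the plus-strand start lay before the minus-strand start (-36 bases), so that pair is counted but is not head to head. Mrps11 stood at 19.6, 22.5 and 16.5 CPM in the knockout and 22.7, 15.5 and 17 CPM in the vehicle group, and Mrpl46 at 34.1, 42.2 and 26.3 CPM against 31.9, 24.7 and 33.7 CPM. Both genes were lowest in vehicle replicate 2, while Mrpl46 was highest in knockout replicate 2 and Mrps11 stood level in knockout replicate 2 and vehicle replicate 1.

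Members moved together from mouse to mouse, and these moves did not follow the groups. For each gene the log2 CPM in a library was taken relative to its mean over the 6 libraries. Large-subunit genes averaged 0.00, 0.29 and -0.19 in knockout replicates 1 to 3 and 0.05, -0.26 and 0.11 in vehicle replicates 1 to 3. Small-subunit genes averaged 0.01, 0.26 and -0.20 in the knockout and 0.03, -0.23 and 0.13 in the vehicle group. The subunits thus kept the same order of libraries, with knockout replicate 2 at the top and vehicle replicate 2 at the bottom, and in both the groups overlapped. Of the 77 members, 69 were above their own mean in knockout replicate 2 and 56 in vehicle replicate 3, but only 8 in knockout replicate 3 and 1 in vehicle replicate 2. Knockout replicate 2 held the highest level of 45 members and vehicle replicate 3 that of 22. Vehicle replicate 2 held the lowest level of 41 members and knockout replicate 3 that of 30. These counts were not made over all genes, so they do not set a trait of the members apart from a shift of the whole library. Summed over members, the level was 3990, 4710 and 3390 CPM in the knockout and 4010, 3340 and 4360 CPM in the vehicle libraries.

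**Figure D2:**
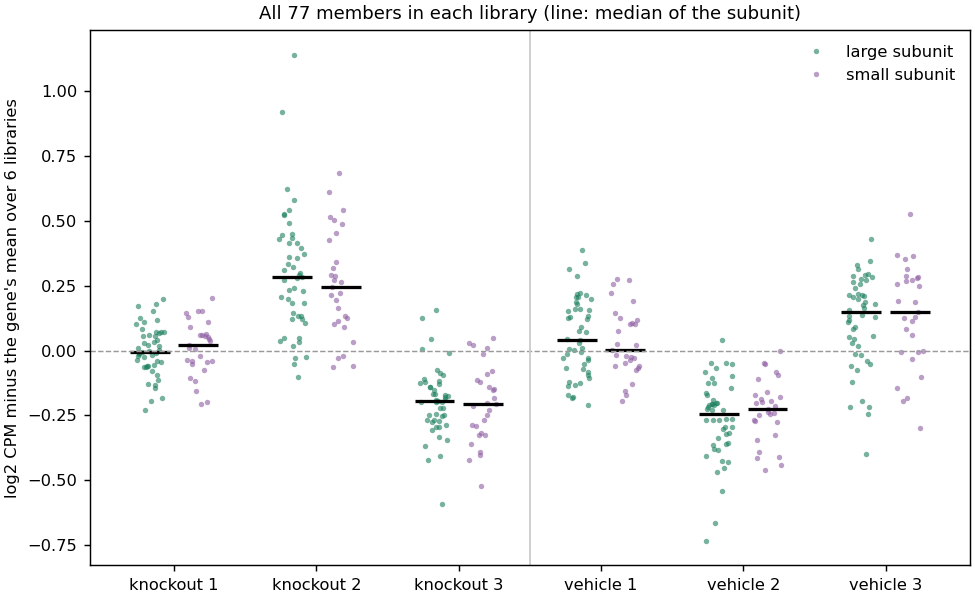
Each point is a member in a library, as its log2 CPM minus the gene's mean over the 6 libraries (vertical axis), for knockout replicates on the left and vehicle replicates on the right; black lines are subunit medians. Both subunits sit high in knockout replicate 2 and low in knockout replicate 3 and vehicle replicate 2.

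Other gene lists shared part of this order. The 81 tested cytosolic ribosomal proteins, which build the ribosome of the cytosol, averaged -0.02, 0.32 and -0.29 in the knockout and -0.11, -0.13 and 0.24 in the vehicle libraries. The 38 genes with names of subunits of complex I, the first respiratory complex, averaged 0.02, 0.42 and -0.21 in the knockout and 0.07, -0.38 and 0.08 in the vehicle libraries. They were taken by name alone, including Ndufa4 and Ndufa4l2, and their place in the complex was not checked. Both lists were highest in knockout replicate 2, which held the highest level of 45 of the 81 cytosolic ribosomal genes and 31 of the 38 genes of the complex I list. The 11 slow-twitch fibre markers, such as Myh7 and Tnni1, varied far more, with a summed level of 6470, 33600 and 10600 CPM in the knockout and 10500, 1610 and 1360 CPM in the vehicle libraries. They were also highest in knockout replicate 2, where the 12 fast-twitch markers were lowest (95500 CPM, against 163000 to 232000 CPM elsewhere). In vehicle replicate 3, however, the slow-twitch markers were at their lowest while 56 of 77 members were above their mean. The 10 genes taking the most reads held 15.1% of reads in knockout replicate 2 and 20.8% to 25.2% in the other libraries. Of 12 macrophage markers 11 were in the table and 10 had reads in every library, with summed levels of 51.4 to 156 CPM in the knockout and 39.7 to 72.5 CPM in the vehicle group. Fibro-adipogenic progenitor markers summed to 515 to 1350 CPM against 558 to 728 CPM, and adipocyte markers to 276 to 787 CPM against 230 to 336 CPM. Blood markers summed to 1330, 3190 and 531 CPM in the knockout and 604, 3610 and 796 CPM in the vehicle libraries. Schwann cell markers summed to 65.8, 98.9 and 106 CPM against 91.1, 170 and 111 CPM. Both lists were highest in vehicle replicate 2. Endothelial markers summed to 329 to 421 CPM against 290 to 380 CPM. The part of fibre type, of these other cells and of the reads taken by a few genes in the levels of the members was not tested.

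**Figure D3:**
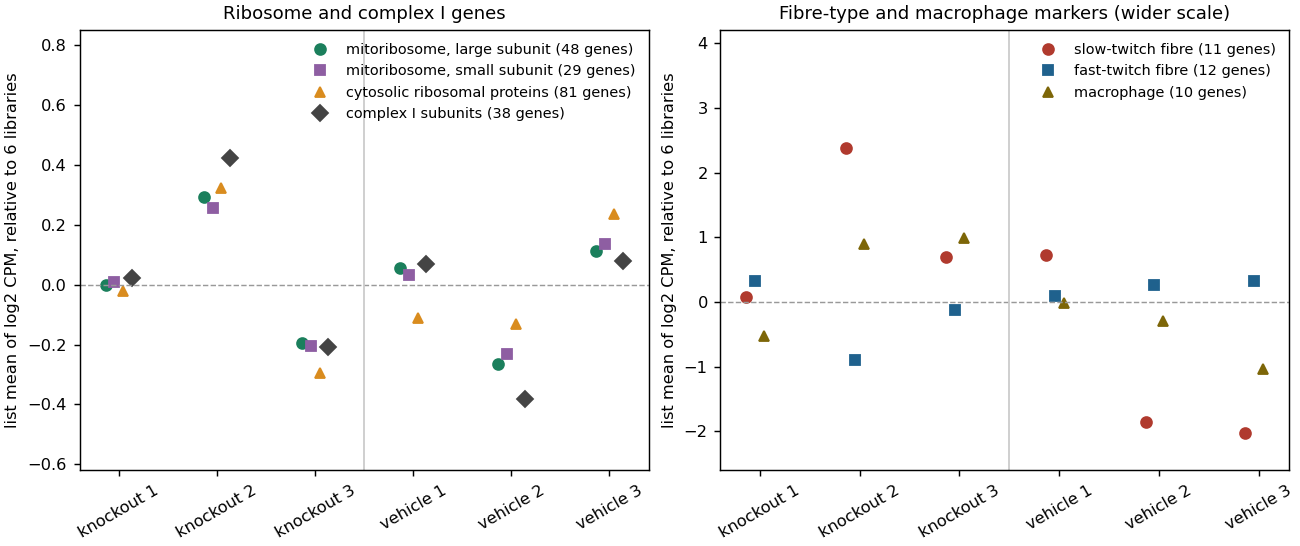
Mean of log2 CPM relative to the 6-library mean for ribosome and complex I lists (left) and for fibre-type and macrophage markers (right, wider scale), one column per library. The mitoribosome lists range from -0.26 to 0.29, and the slow-twitch markers from -2.03 to 2.38.

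No member passed the test between knockout and vehicle muscle. With edgeR's quasi-likelihood test over 15583 genes, 0 of 77 members had an adjusted p below 0.05, as did 0% of all genes; the smallest adjusted p of a member was 0.640. DESeq2 also called 0 members, against 0.699% of all genes. At an unadjusted p below 0.05 there were 2 members, both higher in the knockout group and both of the large subunit, which is 2.6% of members against 7.44% of all genes (4.02% higher, 3.42% lower). Libraries of the groups did not overlap for 5 members, 4 higher and 1 lower, or 6.49% against 12.3% of all genes (5.83% higher, 6.48% lower). Neither share was above that of all genes.

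The estimates centred near 0 in both subunits. In the large subunit 29 were positive and 19 negative, with a median log2 fold change of 0.03 (quartiles -0.06 and 0.16, range -0.34 to 0.61). In the small subunit 16 were positive and 13 negative, with a median of 0.01 (quartiles -0.11 and 0.15, range -0.23 to 0.45). Positive estimates made up 58.4% of members against 52.9% of all genes, whose median was 0.02 (quartiles -0.18 and 0.25). The sign of these medians rested on single mice. Without knockout replicate 2 the medians were -0.08 and -0.12, with 24 of 77 estimates positive, and without vehicle replicate 2 they were -0.08 and -0.11, with 26 positive. Without knockout replicate 3 they were 0.14 and 0.11, with 60 positive. Scaling by library totals alone gave 0.14 and 0.11, beside a median of 0.12 for all genes.

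What the data do bound is the size of a difference. The median standard error of a member was 0.20 on the log2 scale, against 0.26 for all genes. For 75 of 77 members (97.4%) the 95% interval lay within 2-fold in either direction, 46 of 48 in the large and 29 of 29 in the small subunit. The same held for 61.5% of all genes and for 88.1% of the 7314 genes in the members' range of CPM. Within 1.5-fold lay the intervals of 51 members, 32 large and 19 small. The members whose interval reached beyond 2-fold were Mrpl14 and Mrpl41. Replicates of a group differed by a median SD of 0.25 (log2) for members and 0.23 for genes in that CPM range.

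**Figure D4:**
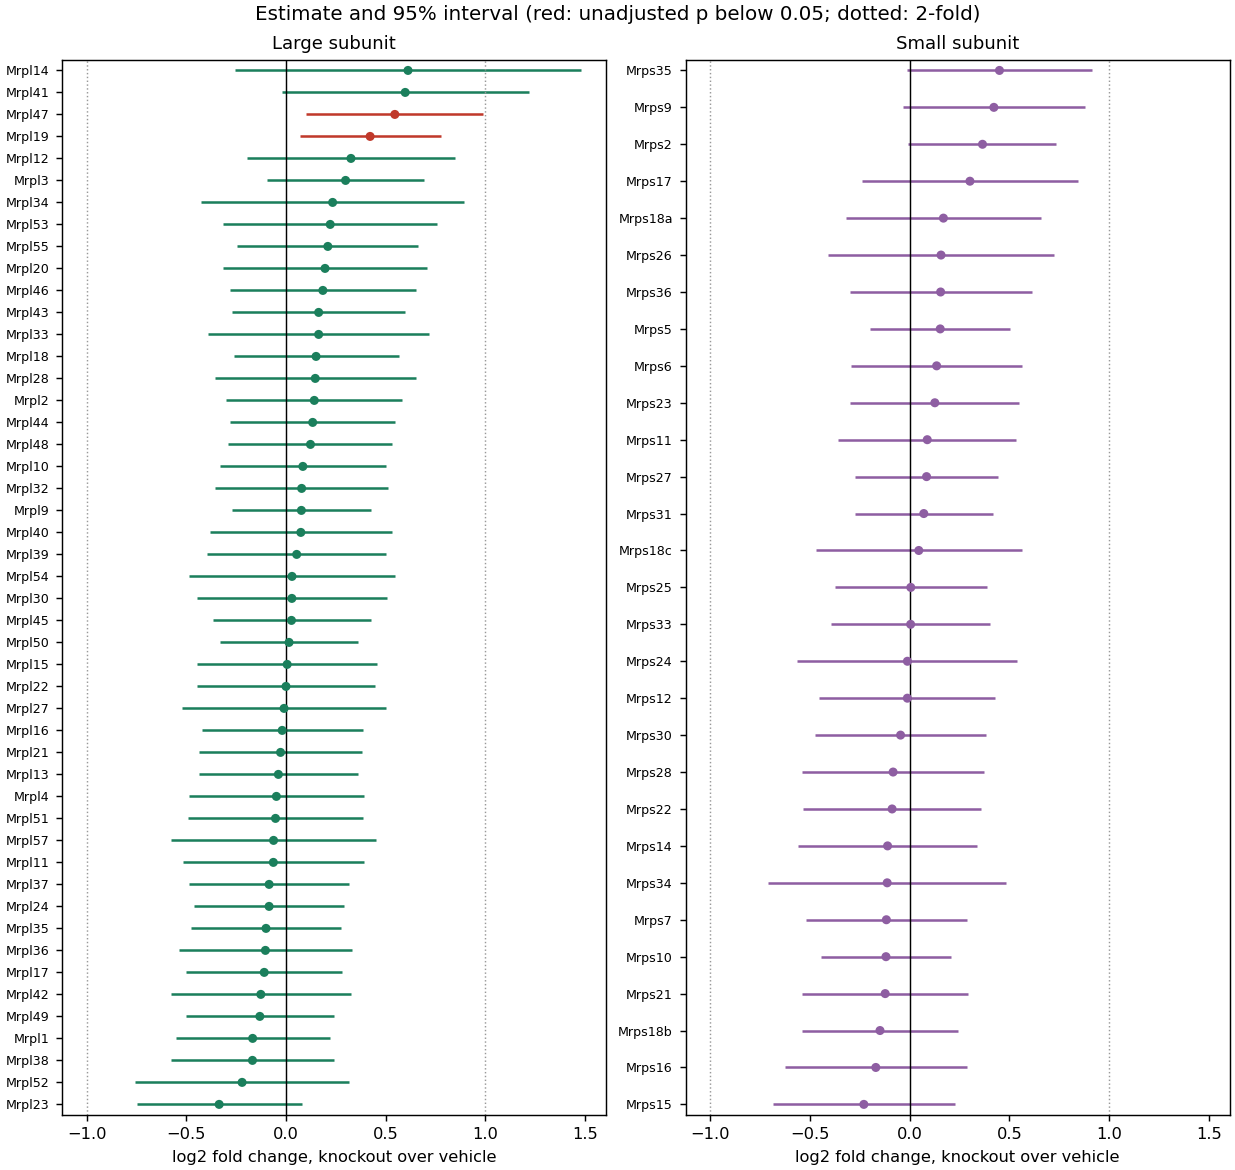
Log2 fold change of each member, knockout over vehicle (horizontal axis), with its 95% interval from edgeR; dotted lines mark 2-fold and red marks an unadjusted p below 0.05. Estimates run from -0.34 (Mrpl23) to 0.61 (Mrpl14), most intervals include 0, and only those of Mrpl14 and Mrpl41 pass 2-fold.

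Among large-subunit proteins, Mrpl47, which sits beside the exit tunnel, had the smallest p of all members. It stood at 35.9, 55.0 and 39.8 CPM in the knockout and 32.7, 25.7 and 31.1 CPM in the vehicle libraries (43.6 ± 10.1 against 29.8 ± 3.64, SD, n = 3 each). All knockout libraries lay above all vehicle libraries, the closest being 35.9 and 32.7 CPM. On the log2 scale the difference was 0.55 with an SE of 0.20 (95% interval 0.10 to 0.99, edgeR adjusted p = 0.640), and it was 0.34 without knockout replicate 2. Mrpl47 (chr3:32725397-32737605) shares 1068 exonic bases with Ndufb5 and Actl6a on the opposite strand in GENCODE M21. Ndufb5 had 475, 677 and 422 CPM against 460, 300 and 433 CPM, and Actl6a had a log2 fold change of 0.01 (SE 0.16). Whether the authors counted by strand is not given in the sources used here, and reads of such overlaps may be shared. Exon overlap with another gene was found for 30 of the 76 members located in that annotation.

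Mrpl19, a protein at the contact between subunits, stood at 26.9, 31.0 and 26.4 CPM in the knockout and 23.3, 19.2 and 20.4 CPM in the vehicle libraries (28.1 ± 2.54 against 21 ± 2.14, n = 3 each). The groups did not overlap, and replicates within each were close. The difference was 0.42 on the log2 scale, with SE 0.16 and an interval of 0.07 to 0.78 (edgeR adjusted p = 0.643), and leaving out any 1 mouse kept the sign. Mrpl19 (chr6:81957851-81965958) shares 1962 exonic bases with Gcfc2 on the opposite strand, which was much lower, at 2.18, 3.13 and 3.23 CPM against 1.55, 2.47 and 2.09 CPM.

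The 2 highest estimates rested on a single mouse. Mrpl14, which faces the small subunit, stood at 56.3, 137 and 52.5 CPM in the knockout and 68.3, 39.3 and 53.5 CPM in the vehicle libraries. Knockout replicate 2 was far above the rest, and the other knockout libraries lay inside the vehicle range. The log2 fold change of Mrpl14 was 0.61 (SE 0.38, edgeR adjusted p = 0.749), and 0.02 without that mouse. Mrpl14 (chr17:45686322-45698495) shares 106 exonic bases with Tmem63b on the opposite strand, which had 63.9, 73.6 and 72.3 CPM against 75.9, 52.1 and 53.2 CPM. Mrpl41, a protein that bacterial ribosomes lack, stood at 30.4, 58.3 and 28.6 CPM in the knockout and 30.5, 23.6 and 23.3 CPM in the vehicle libraries. It too was high in knockout replicate 2 alone, and vehicle replicate 1 lay level with knockout replicate 1. Its log2 fold change was 0.60 (SE 0.28, edgeR adjusted p = 0.676), and 0.19 without knockout replicate 2.

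Mrpl3, a core protein near the peptidyl transferase centre, completed the 4 large-subunit genes of smallest p with a positive estimate. It stood at 43.2, 61.6 and 46.6 CPM in the knockout and 39.8, 39.2 and 44.0 CPM in the vehicle libraries (log2 fold change 0.30, SE 0.18, edgeR adjusted p = 0.733), with knockout replicate 1 inside the vehicle range. Without knockout replicate 2 the estimate of Mrpl3 was 0.13.

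In the other direction, Mrpl23, a protein at the mouth of the exit tunnel, was the member whose knockout libraries all lay below its vehicle libraries. It stood at 53.9, 53.0 and 40.9 CPM in the knockout and 56.0, 56.4 and 74.1 CPM in the vehicle libraries (49.3 ± 7.24 against 62.2 ± 10.3, n = 3 each). The gap between the groups was narrow, 53.9 against 56.0 CPM, and vehicle replicate 3 stood apart. The log2 fold change of Mrpl23 (chr7:142532799-142540747) was -0.34 with an SE of 0.18 (interval -0.75 to 0.08, edgeR adjusted p = 0.717). It was -0.19 without vehicle replicate 3 and -0.22 without knockout replicate 3. A processed pseudogene, Mrpl23-ps1, had 435, 438 and 368 reads against 480, 466 and 704 reads (log2 fold change -0.39, edgeR adjusted p = 0.700), and reads of such copies cannot be assigned with certainty. The next negative estimates of the large subunit were -0.17 for Mrpl1, of the mobile L1 stalk, -0.22 for Mrpl52 and -0.17 for Mrpl38, both proteins specific to mitochondria, with standard errors of 0.17, 0.24 and 0.18. Their groups overlapped.

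**Figure D5:**
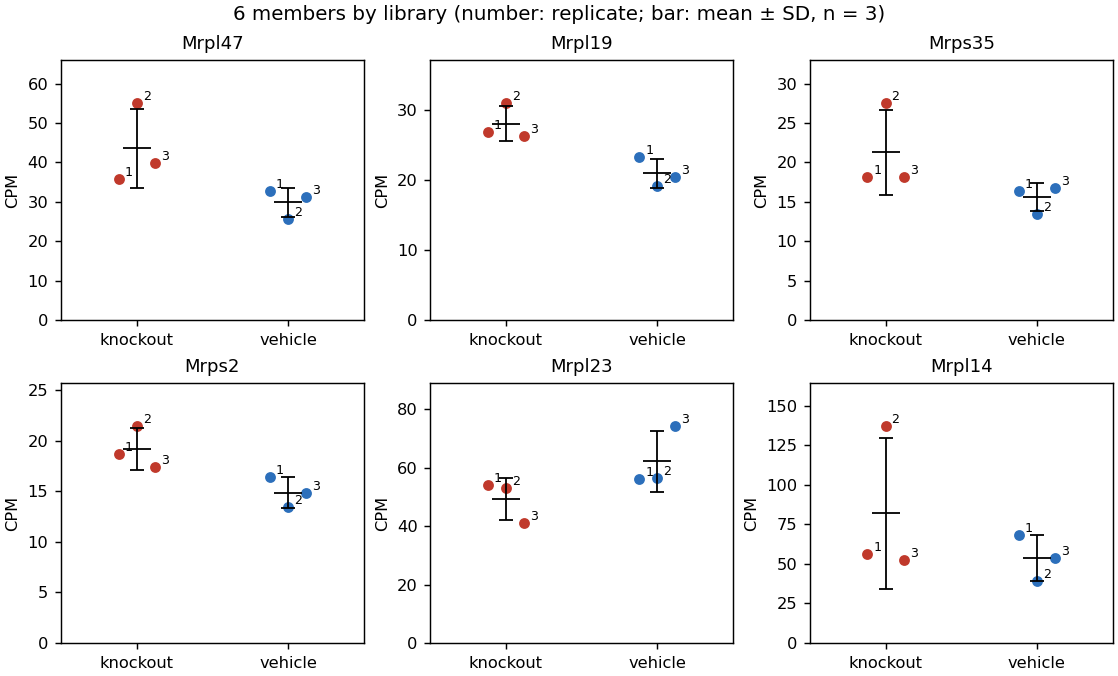
CPM (vertical axes, from 0) of 6 members in knockout and vehicle libraries; numbers are replicates, and bars are mean ± SD of 3. The groups are apart for Mrpl47, Mrpl19, Mrps35, Mrps2 and Mrpl23, and for Mrpl14 knockout replicate 2 alone is high, at 137 CPM.

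In the small subunit, Mrps2, a protein between the head and body of the particle, stood at 18.7, 21.4 and 17.4 CPM in the knockout and 16.4, 13.4 and 14.8 CPM in the vehicle libraries (19.2 ± 2.00 against 14.9 ± 1.49, n = 3 each). The groups did not overlap, with 17.4 and 16.4 CPM the nearest values. The log2 difference was 0.36 with an SE of 0.17 (interval -0.01 to 0.74, edgeR adjusted p = 0.674). Mrps35, a protein that bacterial ribosomes lack, stood at 18.1, 27.5 and 18.2 CPM in the knockout and 16.4, 13.5 and 16.8 CPM in the vehicle libraries (21.3 ± 5.38 against 15.6 ± 1.8, n = 3 each). Knockout replicate 2 was the highest and the groups did not overlap, with 18.1 and 16.8 CPM the nearest values. The log2 fold change of Mrps35 was 0.45 (SE 0.21, edgeR adjusted p = 0.674), and 0.22 without that mouse.

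Mrps9, whose bacterial counterpart touches the tRNA in the P site, stood at 42.2, 55.5 and 39.9 CPM in the knockout and 42.5, 28.4 and 31.8 CPM in the vehicle libraries, overlapping through vehicle replicate 1 (log2 fold change 0.42, SE 0.20, edgeR adjusted p = 0.688, and 0.26 without knockout replicate 2). Mrps17, a primary rRNA-binding protein, stood at 39.9, 71.5 and 40.1 CPM against 38.9, 37.5 and 46.4 CPM, with knockout replicate 2 alone above the rest. Its log2 fold change of 0.30 (SE 0.24) became -0.04 without that mouse. Mrps15, near the bridge between the subunits, had the lowest estimate of the small subunit, with 47.2, 48.2 and 41.7 CPM against 46.7, 43.7 and 70.4 CPM (log2 fold change -0.23, SE 0.20, edgeR adjusted p = 0.820). Vehicle replicate 3 alone was high for Mrps15, and the estimate was 0.01 without it. The negative estimates next in rank by p in this subunit were -0.17 for Mrps16, -0.15 for Mrps18b and -0.12 for Mrps10 (SE 0.20, 0.17 and 0.15). Their groups overlapped, and their unadjusted edgeR p-values were large, at 0.423, 0.412 and 0.435.

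Members singled out for their role all had overlapping groups. Of the stalk that recruits translation factors, Mrpl12 stood at 135, 168 and 106 CPM in the knockout and 130, 82.0 and 113 CPM in the vehicle libraries (log2 fold change 0.33, SE 0.23, and 0.15 without knockout replicate 2 or without vehicle replicate 2), while Mrpl10 and Mrpl11 at its base had 0.08 (SE 0.18) and -0.06 (SE 0.20). In all 3 the libraries of the groups were interleaved. Mrpl45, which ties the ribosome to the inner membrane, had 87.6, 79.9 and 68.3 CPM against 88.8, 66.0 and 76.5 CPM (log2 fold change 0.03, SE 0.18). Mrps12, the decoding-site protein in which bacterial streptomycin resistance arises, had 17.7, 19.8 and 13.9 CPM against 20.3, 14.5 and 17 CPM (log2 fold change -0.01, SE 0.20). Ict1, a peptidyl-tRNA hydrolase built into the large subunit and also named Mrpl58, falls outside the name rule and had a log2 fold change of 0.07 (SE 0.22).

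The 3 paralogs of bacterial S18 occupy different places, Mrps18a in the large subunit despite its name. Their mean FPKM was 17.5 for Mrps18a, 20.1 for Mrps18b and 39.7 for Mrps18c. Log2 fold changes of Mrps18a, Mrps18b and Mrps18c were 0.17 (SE 0.22), -0.15 (SE 0.17) and 0.05 (SE 0.23). Mrps30 is likewise found in the large subunit (log2 fold change -0.05, SE 0.19), and Mrps36 is now regarded as a subunit of the alpha-ketoglutarate dehydrogenase complex (log2 fold change 0.16, SE 0.20). The groups of the genes of highest level per length overlapped as well: Mrpl42 had 294, 283 and 233 CPM against 260, 271 and 352 CPM (log2 fold change -0.13, SE 0.20), Mrps21 -0.12 (SE 0.18) and Mrpl18 0.15 (SE 0.18).

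Genes that work with the mitochondrial ribosome were read from the same fit, and none of them passed the adjusted threshold in edgeR. An unadjusted p below 0.05 was reached by 1 aminoacyl-tRNA synthetase (Lars2), by 2 genes of mitochondrial transcription (Tefm and Mterf2) and by 3 regulators (Esrra, Gabpa and Myc). These are 5%, 11.8% and 33.3% of their lists, beside 7.44% of all genes. DESeq2 called Lars2 and Myc, beside 0.699% of all genes. Of the 6 mitoribosomal proteins with other names, among them Dap3 and Ict1, 3 estimates were positive and 3 negative (median 0.01). Ptcd3, an RNA-binding protein of the small subunit, had 91.8, 86.2 and 86.4 CPM against 82.6, 67.4 and 70.1 CPM, groups that did not overlap (log2 fold change 0.26, SE 0.16, edgeR adjusted p = 0.733). Gadd45gip1 had 0.44 (SE 0.26) and Aurkaip1 -0.11 (SE 0.20). Of 15 translation factors, 11 estimates were positive and 4 negative (median 0.18), and 3 factors (20%) had knockout libraries all above their vehicle libraries, against 5.83% of all genes. These were Mtif2, the initiation factor (31.4, 34.4 and 28.7 CPM against 24.4, 24.5 and 26.3 CPM, log2 fold change 0.33), Mrrf, the recycling factor (30.9, 24.4 and 26.4 CPM against 23.6, 21 and 22 CPM, 0.30), and Guf1, an elongation factor (25.9, 27.5 and 27 CPM against 23.8, 21.1 and 21.8 CPM, 0.27). The smallest edgeR adjusted p of that list was 0.674.

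Of 23 factors of ribosome assembly and rRNA modification, 9 estimates were positive and 14 negative (median -0.01). Malsu1, which keeps the assembling large subunit from joining too early, had 24.8, 27.9 and 21.2 CPM against 28.1, 29.0 and 37.7 CPM, all knockout libraries below all vehicle libraries by a margin of 27.9 against 28.1 CPM (log2 fold change -0.36, SE 0.18, edgeR adjusted p = 0.695). Trub2, a pseudouridine synthase, had 0.23 (SE 0.17) and the RNA helicase Dhx30 0.19 (SE 0.15). Of 20 aminoacyl-tRNA synthetases and amidotransferase subunits, which load the tRNAs, 11 estimates were positive and 9 negative (median 0.01). Lars2, the leucyl-tRNA synthetase, stood apart with 112, 283 and 460 CPM against 83.4, 102 and 78.8 CPM and no overlap. Its log2 fold change was 1.70 (SE 0.43, edgeR adjusted p = 0.526), with a spread among knockout mice larger than the gap to the vehicle group. Without knockout replicate 1 the adjusted p of Lars2 was 0.0295 in edgeR, and DESeq2 on all mice gave 0.0057; over all alternatives it ran from 0.0057 to 0.991. Vars2 and Gatc of that list had 0.43 (SE 0.23) and -0.29 (SE 0.18).

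Of 17 genes for transcription of mitochondrial DNA and handling of its RNA, 11 estimates were positive and 6 negative (median 0.09). Tefm, the elongation factor of the mitochondrial RNA polymerase, had 28.7, 35.1 and 22 CPM against 19.8, 19.0 and 21.2 CPM (log2 fold change 0.51, SE 0.19, edgeR adjusted p = 0.643). Mterf2 had 20.6, 26.8 and 19.5 CPM against 16.4, 16.1 and 17.6 CPM (0.41, SE 0.17, edgeR adjusted p = 0.651). The groups of both did not overlap, and the helicase Supv3l1 had 0.29 (SE 0.17). Of 9 regulators known to act on nuclear genes of mitochondria, 4 estimates were positive and 5 negative (median -0.04). The groups did not overlap for 44.4% of this short list, against 12.3% of all genes, with 2 higher (Esrra and Gabpa) and 2 lower (Nrf1 and Myc). Esrra, an orphan nuclear receptor of oxidative metabolism, had 59.2, 77.9 and 58.6 CPM against 58.4, 37.1 and 38.4 CPM, a margin of 58.6 over 58.4 CPM (log2 fold change 0.55, SE 0.22, edgeR adjusted p = 0.645). Gabpa had 34.3, 33.2 and 34.6 CPM against 29.4, 27.8 and 21.9 CPM (0.37, SE 0.16, edgeR adjusted p = 0.668), while Nrf1 had 11.1, 10.9 and 11 CPM against 12.5, 13.0 and 11.5 CPM (-0.16, SE 0.16). Yy1, the third factor whose motif was searched, had -0.04 (SE 0.18), and the coactivator Ppargc1a 0.06 (SE 0.17). Myc, which drives ribosome genes in growing cells, had 12.0, 7.23 and 11.6 CPM against 14.4, 28.8 and 27.2 CPM (log2 fold change -1.20, SE 0.29, edgeR adjusted p = 0.526, DESeq2 adjusted p = 0.0258, with 0.0258 to 0.991 over all alternatives).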

How the data were processed

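RNA was isolated from flash-frozen muscle and sequenced from stranded mRNA libraries (TruSeq), per the labels' protocols, with 1 library per mouse, 3 in each group. The authors deposited a read count for each gene in each library. The submitters' processing notes name STAR 2.6.1c, bcl2fastq and featureCounts (Subread 1.5.1) and the mm10 build. Which gene annotation was used, and whether counting used strand, is not given in the sources used here. The deposited FPKM were recomputed from the counts, dividing by library total and by listed length plus 1 base, and hold no other scaling. Coordinates are those of the table.

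Counts were tested in R 4.3.3 with edgeR 4.0.16 (TMM scaling, factors 0.912 to 1.13, filterByExpr with a minimum count of 10, robust quasi-likelihood F test, two-sided, Benjamini-Hochberg over 15583 genes, threshold 0.05). DESeq2 1.42.0 and limma 3.58.1 served as alternatives, with other scalings, filters and each mouse left out. CPM are TMM-scaled, log2 CPM use a prior count of 2, and intervals are 95%. The common biological coefficient of variation was 0.27. The scripts were tested on simulated counts, with 100 genes changed 2-fold and 100 changed 4-fold. There edgeR recovered 42% of the 2-fold and 92% of the 4-fold changes, with 15 false calls among 15284 genes. DESeq2 recovered 63% and 97%, with 49 false calls, so its calls are the less strict ones. The exact permutation test of 3 mice against 3 cannot go below p = 0.1 and was not used.

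Replicate numbers only name the mice. The p-values set the difference between the groups against the spread among mice of the same group, which edgeR estimates with information from all genes. They rest on these 6 mice alone. All pairs of libraries differed by more than sampling noise.

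Members and gene lists were chosen with earlier results of these data known, so no test was made over a list. Named members were, in each subunit, the 4 of smallest unadjusted p in each direction and the 3 of highest and lowest mean FPKM, every member whose groups did not overlap, and genes chosen for their role. In each related list the 3 of smallest p were named. Mrpl14 was named after its values were seen. Of listed symbols, 15 of 17 translation factors, 23 of 26 assembly factors and 17 of 19 mitochondrial transcription genes were in the table. Promoters came from RefSeq (GRCm38.p6) and exon overlaps from GENCODE M21 (GRCm38), in which 76 of 77 member IDs were found.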

Additional observations from a re-analysis of the deposited data

How the results depend on the processing

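Every setting called 0 of the 77 members: 3 other scalings, 2 other filters, DESeq2, limma-voom with and without quality weights, limma on log2(FPKM + 0.1) and log2(FPKM + 1), no robust estimation, an adjusted p below 0.1 and each mouse left out. The count over all genes was 0 in edgeR and became 4 with DESeq2 size factors, 29 with no filter, 109 with the DESeq2 Wald test, 4 with quality weights, 7 at an adjusted p below 0.1 and 0 to 24 with a mouse left out (24 without knockout replicate 1, 6 without knockout replicate 2). Quality weights gave subunit medians of -0.03 (large) and -0.05 (small). No paired analysis was possible because the labels give separate mice with no shared replicate numbers.

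Among related lists, the synthetase median of 0.01 became 0.103 with library totals, 0.0994 and 0.0854 on log2(FPKM + 0.1) and log2(FPKM + 1), and -0.0216 to 0.117 with a mouse left out. DESeq2 called 1 synthetase (Lars2) and 1 regulator (Myc), and leaving out a mouse called 0 to 1 synthetase. The translation factor median ran from 0.0487 to 0.237 with a mouse left out, lowest without vehicle replicate 2.

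Signs of small estimates turned with the scaling. With library totals, log2(FPKM + 0.1) and log2(FPKM + 1) in turn, the log2 fold change was 0.0472, 0.00616 and 0.0106 for Mrpl57, 0.0648, 0.0458 and 0.0425 for Mrpl13, 0.0465, 0.0209 and 0.0209 for Mrpl11, 0.0695, 0.0425 and 0.0413 for Mrps30, 0.0902, 0.0792 and 0.0755 for Mrps12, and 0.0654, 0.0546 and 0.0484 for Yy1. Library totals alone turned Mrps28 (0.0249) and Aurkaip1 (0.00084). Mrps25 was -0.012 with DESeq2 size factors, -0.0071 with no filter, -0.0121 with DESeq2 and -0.0477 with quality weights, which also turned Mrpl10 (-0.0083), Mrpl45 (-0.0285), Mrps18a (-0.0349) and Mrps18c (-0.073). With a mouse left out the sign turned and the range was -0.255 to 0.0151 for Aurkaip1, -0.15 to 0.232 for Ict1, -0.072 to 0.181 for Mrpl10, -0.24 to 0.0699 for Mrpl11, -0.155 to 0.084 for Mrpl13, -0.21 to 0.0202 for Mrpl42, -0.0815 to 0.139 for Mrpl45, -0.272 to 0.0993 for Mrpl57, -0.133 to 0.118 for Mrps12, -0.37 to 0.0134 for Mrps15, -0.0351 to 0.44 for Mrps17, -0.0884 to 0.341 for Mrps18a, -0.187 to 0.226 for Mrps18c, -0.108 to 0.1 for Mrps25, -0.269 to 0.071 for Mrps28, -0.211 to 0.071 for Mrps30, -0.00424 to 0.298 for Mrps36, -0.0533 to 0.187 for Ppargc1a and -0.16 to 0.0345 for Yy1. The cause of these changes was not tested. Of the 77 members, 25 kept their sign whichever mouse was left out. With 3 mice a group, 51 members had intervals within 1.5-fold, and differences smaller than their intervals were not detectable.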

Other observations

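The ratio of summed reads, large over small subunit, was 2.337, 2.353 and 2.343 in knockout replicates 1 to 3 and 2.287, 2.266 and 2.277 in vehicle replicates 1 to 3. All knockout libraries lay above all vehicle libraries (2.34 ± 0.00798 against 2.28 ± 0.0106, SD, n = 3 each). This measure was chosen after its values were seen and has no test. It compares reads and not numbers of transcripts, since reads scale with length. With Mrps18a and Mrps30 counted in the large subunit and Mrps36 left out, the difference between the group means went from 0.0674 to 0.107. Leaving out one at a time of Mrpl42, Mrpl30, Mrpl51, Mrpl33 and Mrps21, the 5 members of highest CPM, and Mrpl14 gave 0.0895, 0.0663, 0.0724, 0.0579, 0.044 and 0.0467, and in these 7 settings the groups did not overlap. The mean log2 level of the large minus that of the small subunit, in which every gene has the same weight, was -0.01, 0.03 and 0.01 in the knockout and 0.02, -0.03 and -0.02 in the vehicle libraries, and there the groups overlapped.

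Processed pseudogenes named for members were also counted. Mrpl48-ps stood at 5.12, 8.96 and 4.82 FPKM in the knockout and 4.87, 3.42 and 6.25 FPKM in the vehicle libraries. Mrps36-ps1 had 10.1, 16.8 and 9.81 against 10.5, 5.86 and 11.8 FPKM, and Mrps36-ps2 had 8.38, 12.3 and 7.61 against 9.81, 5.98 and 9.46 FPKM. These 3 were highest in knockout replicate 2 and lowest in vehicle replicate 2. The fourth, Mrpl23-ps1, was highest in vehicle replicate 3 (30.4 FPKM) and lowest in knockout replicate 3 (18 FPKM).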
